A study of Mus musculus with 6 samples.

Results

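Immature granule-rich neutrophils are neutrophils that still transcribe the genes of their storage granules. They were chosen by a rule on each cell barcode of the 6 mouse liver libraries, and the rule found 185 barcodes among the 66935 that held at least 300 genes and under 25% mitochondrial transcripts. A member had at least 5 unique molecular identifiers (UMIs, each marking 1 captured transcript) of S100a8 and S100a9 together, the calprotectin genes of neutrophils. At least 0.5% of its UMIs came from Ngp, Camp, Ltf, Fcnb and Chil3, and at least 2 of these 5 genes were detected. Barcodes with 2 or more of the progenitor genes Mpo, Elane, Prtn3, Ctsg and Ms4a3 were left out, as were those with a UMI of Cd3e (T cells), Cd79a (B cells), Clec4f (Kupffer cells) or Stab2 (sinusoidal endothelium). The members were set against neutrophils below the cut, which met the same conditions with a marker share under 0.5% or fewer than 2 of the markers, and in which S100a8 and S100a9 made up at least 1% of the UMIs. There were 6374 of these.

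The study profiled single cells of whole mouse livers during colorectal cancer spread to the liver, with 2 libraries in each of 3 groups. The groups were control livers, livers labelled as pre-metastatic niches and livers labelled as macro-metastatic niches, the last 2 from mice in which colorectal cancer cells had been placed orthotopically. All 6 libraries, the controls included, carry the label CT26-GFP, which is a line of mouse colon carcinoma cells marked with green fluorescent protein, and no age, strain or time is given. Livers were digested with collagenase, freed of erythrocytes and dead cells, and captured on the BD Rhapsody system. Total UMIs per library were between 41914149 and 51750676 in control and pre-metastatic livers, and 88986627 and 90819751 in macro-metastatic livers. Whether the replicates came from different animals is not stated, and the p-values therefore cover only the spread between these libraries, which may be technical.

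Neutrophils are made in the bone marrow, where dividing precursors fill successive sets of granules before they stop dividing and leave for the blood. Primary granules hold myeloperoxidase and elastase, specific granules hold lactoferrin (Ltf), cathelicidin (Camp) and neutrophilic granule protein (Ngp), and gelatinase granules, the last to form, hold proteases such as Mmp9. Transcription of granule genes ends as the cells mature, while receptors of circulating neutrophils, such as Cxcr2, come on late. C/EBP-epsilon is a transcription factor known for driving specific granule genes.

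The promoters of 3 of the marker genes, Ngp, Camp and Ltf, and of Lcn2, a specific granule gene that the rule did not use, are shown because the rule rests on the marker genes and Lcn2 is set beside them throughout. Ngp, Camp and Ltf lie on mouse chromosome 9, their promoters within 1170 kb of each other, and Lcn2 lies on chromosome 2. The sequences are from RefSeq on build GRCm38.p6 and run 5′ to 3′ on the gene's strand, from 250 bases before to 50 bases after the annotated start of transcription. Capitals mark TTGCNNAA, a form of the C/EBP core, on either strand.
Ngp (chr9:110419558-110419857, + strand): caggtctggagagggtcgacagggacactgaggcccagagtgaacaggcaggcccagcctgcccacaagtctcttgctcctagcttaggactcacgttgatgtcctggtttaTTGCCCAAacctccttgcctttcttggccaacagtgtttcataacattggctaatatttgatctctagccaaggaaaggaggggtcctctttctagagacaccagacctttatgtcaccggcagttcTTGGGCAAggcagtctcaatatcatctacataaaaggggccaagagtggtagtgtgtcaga
Camp (chr9:109849407-109849706, - strand): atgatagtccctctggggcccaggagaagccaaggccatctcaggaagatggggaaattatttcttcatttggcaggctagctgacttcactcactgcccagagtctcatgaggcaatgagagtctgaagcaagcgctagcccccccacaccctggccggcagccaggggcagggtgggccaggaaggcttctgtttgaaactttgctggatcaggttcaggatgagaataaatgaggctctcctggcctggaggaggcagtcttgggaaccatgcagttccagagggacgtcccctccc
Ltf (chr9:111019042-111019341, + strand): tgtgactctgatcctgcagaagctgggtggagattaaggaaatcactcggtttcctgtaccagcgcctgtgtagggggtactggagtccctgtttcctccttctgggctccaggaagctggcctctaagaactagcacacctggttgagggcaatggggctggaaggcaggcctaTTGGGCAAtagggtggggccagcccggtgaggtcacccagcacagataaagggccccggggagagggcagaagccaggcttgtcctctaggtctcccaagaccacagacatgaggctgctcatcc
Lcn2 (chr2:32387690-32387989, - strand): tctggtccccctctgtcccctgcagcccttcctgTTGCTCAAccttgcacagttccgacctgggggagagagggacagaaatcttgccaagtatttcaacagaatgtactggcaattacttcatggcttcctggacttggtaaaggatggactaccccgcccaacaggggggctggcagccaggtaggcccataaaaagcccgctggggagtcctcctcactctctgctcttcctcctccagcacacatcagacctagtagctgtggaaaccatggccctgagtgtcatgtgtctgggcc
TTGCNNAA was present at 2 places in the Ngp promoter, at 1 in that of Ltf and at 1 in that of Lcn2, and these letters were not in the Camp window. Of 32851 mouse promoters of this length, 10.8% held it. The looser TTNNGNAA, which was also searched on both strands and includes every TTGCNNAA of these promoters, was in 40.7% of them. Among the other granule and surface genes sought, TTGCNNAA was in the promoters of Fcnb, Mmp8 and Retnlg and in 1 of the 2 listed for Ly6g, and these letters were not in the windows of Chil3, Cd177 and Cybb.

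Members were rare in control livers and more frequent in the model. The control libraries held 2 and 1, the pre-metastatic libraries 40 and 7, and the macro-metastatic libraries 96 and 39. Control livers thus had 0.0211% and 0.00964% of their kept barcodes in this class, pre-metastatic livers 0.388% and 0.0657%, and macro-metastatic livers 0.797% and 0.278%. Each library of the model lay above both controls, while the pre-metastatic and macro-metastatic libraries overlapped. Among the 9 classes into which the rule sorts barcodes, edgeR's quasi-likelihood test gave a log2 fold change of 5.04 (SE 1.93) for macro-metastatic against control, with an adjusted p of 0.0184. For pre-metastatic against control it was 3.80 (SE 1.89), with an adjusted p of 0.0985, and for macro-metastatic against pre-metastatic 1.24 (SE 1.53), with an adjusted p of 0.472. The call for macro-metastatic against control rests on few control barcodes, and the adjusted p was 0.154 without control replicate 1, 0.205 without control replicate 2 and 0.109 without macro-metastatic replicate 1. Without pre-metastatic replicate 2, the comparison of pre-metastatic with control passed, with an adjusted p of 0.0285.

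The rise went with a rise of neutrophils as a whole. Control libraries held 82 and 149 neutrophils below the cut, pre-metastatic libraries 1026 and 643, and macro-metastatic libraries 2014 and 2460. In the same edgeR fit their log2 fold change was 3.89 (SE 0.418) for macro-metastatic against control and 2.79 (SE 0.401) for pre-metastatic against control, with adjusted p-values of 5.85e-09 and 1.57e-06. Within neutrophils, members made up 2.38% (95% Wilson interval 0.655% to 8.27%) and 0.667% (0.118% to 3.68%) in control livers. In pre-metastatic livers the share was 3.75% (2.77% to 5.07%) and 1.08% (0.523% to 2.21%), and in macro-metastatic livers it was 4.55% (3.74% to 5.52%) and 1.56% (1.14% to 2.13%). The groups overlapped, and the second library was below the first in all 3 of them. The mean share was 3.06% ± 2.11 in macro-metastatic livers against 1.52% ± 1.21 in control livers (SD, n = 2 each), a difference of 1.53 percentage points (exact two-sided permutation p = 0.667). The differences for pre-metastatic against control and for macro-metastatic against pre-metastatic, 0.891 and 0.641 percentage points, had the same p, and 2 libraries against 2 cannot go below 0.333. The intervals cover counting error only, and shares describe the cells that survived digestion and dead-cell removal.

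**Figure D1:**
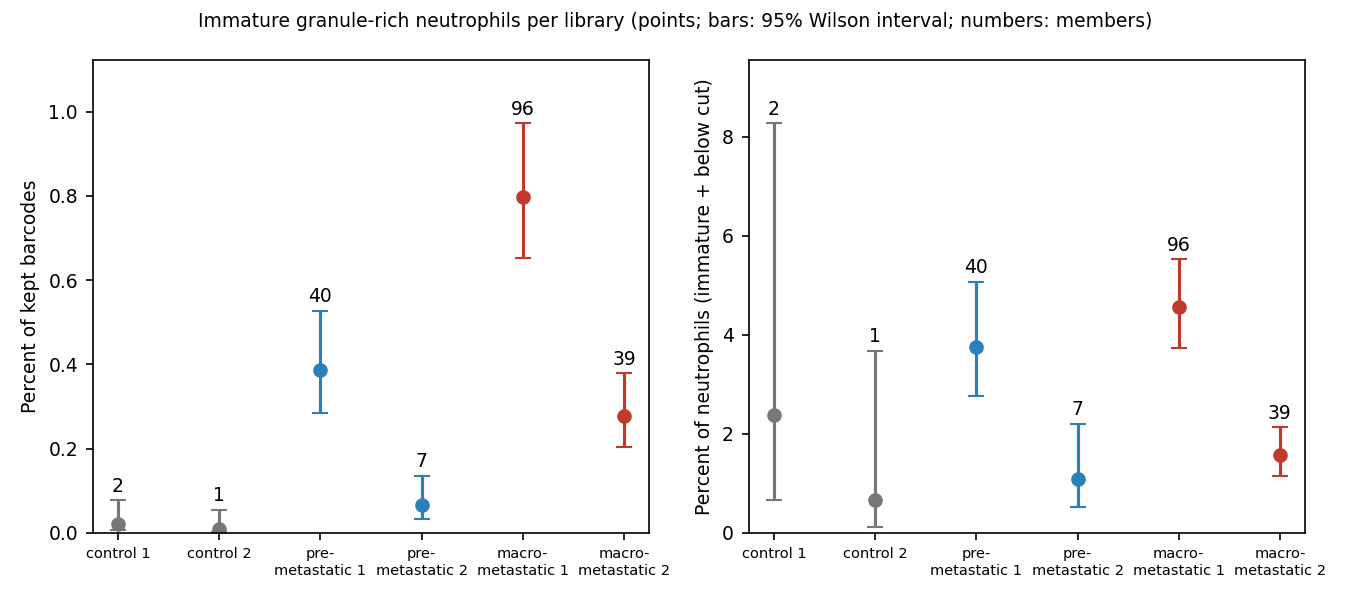
Immature granule-rich neutrophils in each library, as a percentage of kept barcodes (left) and of neutrophils (right), with 95% Wilson intervals as bars and the number of members above each. On the left the macro-metastatic libraries, at 0.797% and 0.278%, lie above both controls, and on the right the 3 groups overlap.

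The neutrophil label was checked on the 6 of 8 neutrophil markers that the rule did not use, in CPM (the UMIs of a gene per 1000000 UMIs summed over a class in a library). Ly6g, the antigen by which mouse neutrophils are sorted, was at 1787 to 5084 CPM in members over the 6 libraries, against 44.7 to 211 CPM below the cut. Retnlg, a resistin-like gene of late neutrophils, was at 1058 to 14719 CPM, against 3144 to 11386 CPM, and Mmp9 at 0 to 2015 CPM, against 574 to 902 CPM. Cxcr2, at 265 to 1058 CPM against 1445 to 2996 CPM, and Csf3r, at 0 to 340 CPM against 2376 to 4004 CPM, were lower in members, and G0s2 was at 0 to 541 CPM, against 409 to 1750 CPM. The values of 0 are from the 1 member of control 2. The rule's own markers describe the selection. Ngp was detected in all 185 members, Camp in 175, Ltf in 167, Chil3 in 131 and Fcnb in 63. Below the cut, Ngp was detected in 16.9% of the 6374 barcodes and each of the other markers in under 3%. Fcnb (ficolin B) and Chil3 (the chitinase-like protein Ym1) mark an earlier stage than Ltf in mouse bone marrow. Members had 504 to 16533 UMIs with a median of 4076, against a median of 1721 below the cut.

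Marker levels among the members are a description, since the members were selected on them. The level of Ngp was 49501 and 49735 CPM among control members, 41600 and 41433 CPM among pre-metastatic members and 44657 and 41621 CPM among macro-metastatic members. The lowest and the highest library were thus close, although the controls rest on 3 barcodes. Ltf, the iron-binding lactoferrin, had control levels of 8634 and 15079 CPM, pre-metastatic levels of 10210 and 12309 CPM and macro-metastatic levels of 10830 and 9972 CPM, which overlap. Camp, the precursor of the antimicrobial peptide CRAMP, had control levels of 3166 and 8466 CPM, pre-metastatic levels of 6598 and 5500 CPM and macro-metastatic levels of 12390 and 11506 CPM, the macro-metastatic libraries being the high ones. Chil3 was at 4509 and 3175 CPM, 3120 and 4610 CPM, and 1467 and 2431 CPM in the same order, and here the macro-metastatic libraries were the low ones. Of the genes the rule excludes, Ctsg had no UMI in any member, which is no finding since barcodes with 2 of the 5 were removed.

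The share of UMIs taken by the 5 markers ran from 0.510% to 13.6% over the 185 members, with a median of 6.43%. In the 3 libraries with at least 10 members (pre-metastatic 1 and both macro-metastatic libraries, 175 members), 125 were at 4% or over, 34 between 1% and 4%, and 16 between 0.5% and 1%. Just outside the cut, at 0.25% to 0.5%, were 84 barcodes, and 27 more had a share of 0.5% or over but only 1 marker. Members just inside the cut were close to those just outside it for some genes and not for others. Lcn2 (lipocalin-2, which binds bacterial siderophores) was at 5860 CPM just inside and 4112 CPM just outside, the cytokine gene Il1b at 4378 and 4334 CPM, and Cxcr2, a receptor for neutrophil-attracting chemokines, at 1923 and 1250 CPM. Cd177 and Ly6g were at 880 and 903 CPM just inside and at 390 and 455 CPM just outside, and Retnlg at 30019 and 17334 CPM, while Csf1r was at 139 and 306 CPM and Cd74 at 69.5 and 271 CPM.

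Members at 4% or over looked different from those near the cut, in values pooled over the 3 libraries. The bins also differed in their mix of libraries. Pre-metastatic 1 supplied 30 of the 125 members at 4% or over, 2 of the 16 at 0.5% to 1% and 937 of the 4179 barcodes without a marker UMI. Cybb, the catalytic subunit of the phagocyte NADPH oxidase, was at 6674 CPM in members at 4% or over, against 718 CPM in members at 0.5% to 1%. Retnlg was at 4341 CPM against 30019 CPM, Mmp8 (neutrophil collagenase) at 1314 CPM against 5165 CPM, and Il1b at 309 CPM against 4378 CPM. In the 16 members just above the cut, Retnlg and Mmp8 were above the 7331 and 2631 CPM of the 4179 barcodes without a marker UMI, and Cxcr2 was close to the 2024 CPM there. Il1b and Csf3r, at 4378 and 996 CPM, were below the 10503 and 2890 CPM there. A limit of 4%, chosen after the distribution had been seen, is therefore used as an alternative in the comparison between groups.

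**Figure D2:**
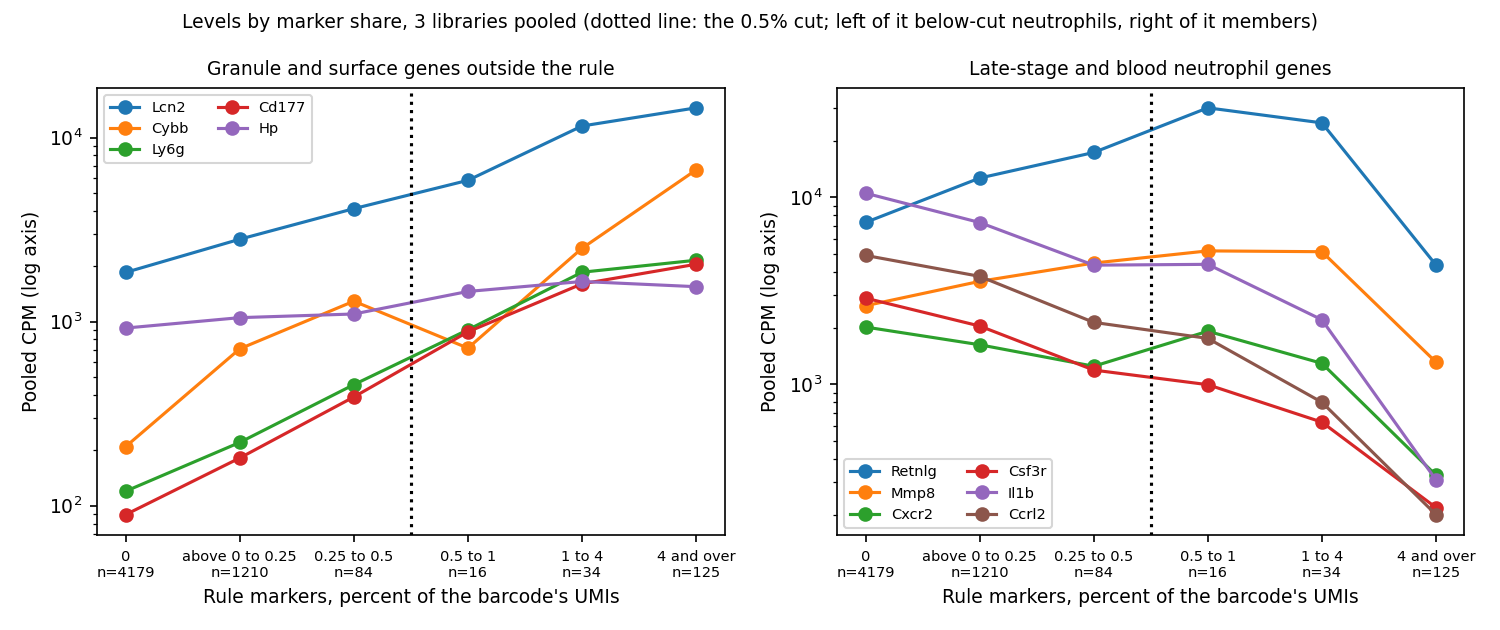
Pooled CPM (log axis) of 11 genes by the share of a barcode's UMIs taken by the 5 rule markers, in pre-metastatic library 1 and both macro-metastatic libraries, with the number of barcodes under each bin. Lcn2, Ly6g and Cd177 rise with the marker share on both sides of the dotted 0.5% cut, while Il1b, Csf3r and Ccrl2 fall, and Retnlg is highest at 0.5% to 1%. The bins differ in their mix of libraries.

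Within libraries, members were set against neutrophils below the cut in these 3 libraries, as a description with no test. Of 1866 genes at 100 CPM or more in either class, 10.9% were at least 2-fold higher and 18.2% at least 2-fold lower in members in all 3 libraries, and the median log2 ratio over all of them was -0.27. Of the 31 genes outside the rule listed for specific and gelatinase granules, 25 reached that level, with a median log2 ratio of 1.79. Of these, 16 were at least 2-fold higher in all 3 libraries and 1, Slc11a1, at least 2-fold lower. Lcn2 was at 11449, 13605 and 15428 CPM in members of pre-metastatic 1, macro-metastatic 1 and macro-metastatic 2, against 1150, 1908 and 2856 CPM below the cut of the same libraries. Cybb was at 8135, 5508 and 4497 CPM in members, against 508, 500 and 226 CPM. Anxa3, an annexin of specific granules, had a median log2 ratio of 4.49, Cd177, a surface glycoprotein of specific granule membranes, of 3.92, Orm1, an acute-phase glycoprotein, of 3.59 and Ly6g of 3.71.

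Mmp8, Mmp9 and Retnlg, taken from the same list after their values were seen, were closer to the neutrophils below the cut. Mmp8 was at 1448, 1649 and 3718 CPM in members of those libraries, against 2195, 1629 and 4516 CPM below the cut. Mmp9 (gelatinase B) had a median log2 ratio of 0.41 and Retnlg of 0.09. The ratio of Retnlg was below 0 in pre-metastatic 1 and above 0 in both macro-metastatic libraries. Pooled over the 3 libraries, Retnlg was at 4341 CPM in members at 4% or over and at 24950 CPM in the 34 members between 1% and 4%. It was at 30019 CPM in the 16 between 0.5% and 1%, and at 7331 CPM in barcodes without a marker UMI. The ratio over all members thus mixes low levels at 4% or over with high levels under 4%. Among the 9 genes listed for primary granules, 3 reached 100 CPM. Mpo, Elane, Prtn3, Ctsg and Ms4a3 of this list did not. The rule removed barcodes with 2 or more of them from both classes, so their low levels are no finding. Serpinb1a, an inhibitor of neutrophil serine proteases, was at 1433, 876 and 872 CPM in members, against 18.6, 17.9 and 27.9 CPM below the cut. Of the 3 genes that reached 100 CPM, Srgn, the proteoglycan serglycin, was the 1 at least 2-fold lower.

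Of the 25 genes of mature and blood neutrophils, all at 100 CPM or more, 20 were at least 2-fold lower in members in all 3 libraries, and the median log2 ratio was -2.31. Il1b was at 104, 1003 and 823 CPM in members, against 13912, 10868 and 6520 CPM below the cut. Csf3r, the receptor of granulocyte colony-stimulating factor, was at 231, 339 and 340 CPM, against 3402, 2376 and 2569 CPM, and Cxcr2 at 351, 431 and 1058 CPM, against 2997, 1445 and 1993 CPM. Ccrl2, a non-signalling chemerin receptor, had a median log2 ratio of -4.22. Itgam, the integrin chain CD11b, and the formyl peptide receptor gene Fpr2 ran the other way, Itgam at 1866, 1371 and 1287 CPM in members, against 886, 620 and 636 CPM. The 12 genes with the lowest ratios were led by Steap4, a metalloreductase, with a median log2 ratio of -6.63. They also held the interferon-inducible Gbp2b and Rtp4, the receptors Cd244a, Tlr1, Klra2 and Gpr35, the cytokines Tnfsf14 and Csf1, and Gm5150, Ccrl2 and Ahnak. Of the other lists, 13 of 18 NF-kB and cytokine genes, 10 of 15 immediate-early and heat-shock genes and 8 of 12 interferon-stimulated genes were at least 2-fold lower in all 3 libraries, with 0 higher in each.

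Genes of the cell cycle were the other group that was higher in members. Of 35 listed, 17 reached 100 CPM, 15 of these were at least 2-fold higher in all 3 libraries and the median log2 ratio was 4.67. They supplied 8 of the 12 genes with the highest ratios outside the rule (Ube2c, Rrm2, Ccna2, Nusap1, Pclaf, Top2a, Cdk1 and Mki67), beside Kif15, a mitotic kinesin that is not on the list, Tmem216, Serpinb1a and Olfml2b. Mki67, the gene of the proliferation antigen Ki-67, was at 343, 502 and 142 CPM in members of pre-metastatic 1, macro-metastatic 1 and macro-metastatic 2, against 7.99, 14.4 and 8.39 CPM below the cut. Top2a (topoisomerase II alpha) was at 336, 423 and 124 CPM, against 3.33, 11.3 and 9.23 CPM. Macro-metastatic 2 was the low library for both genes.

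**Figure D3:**
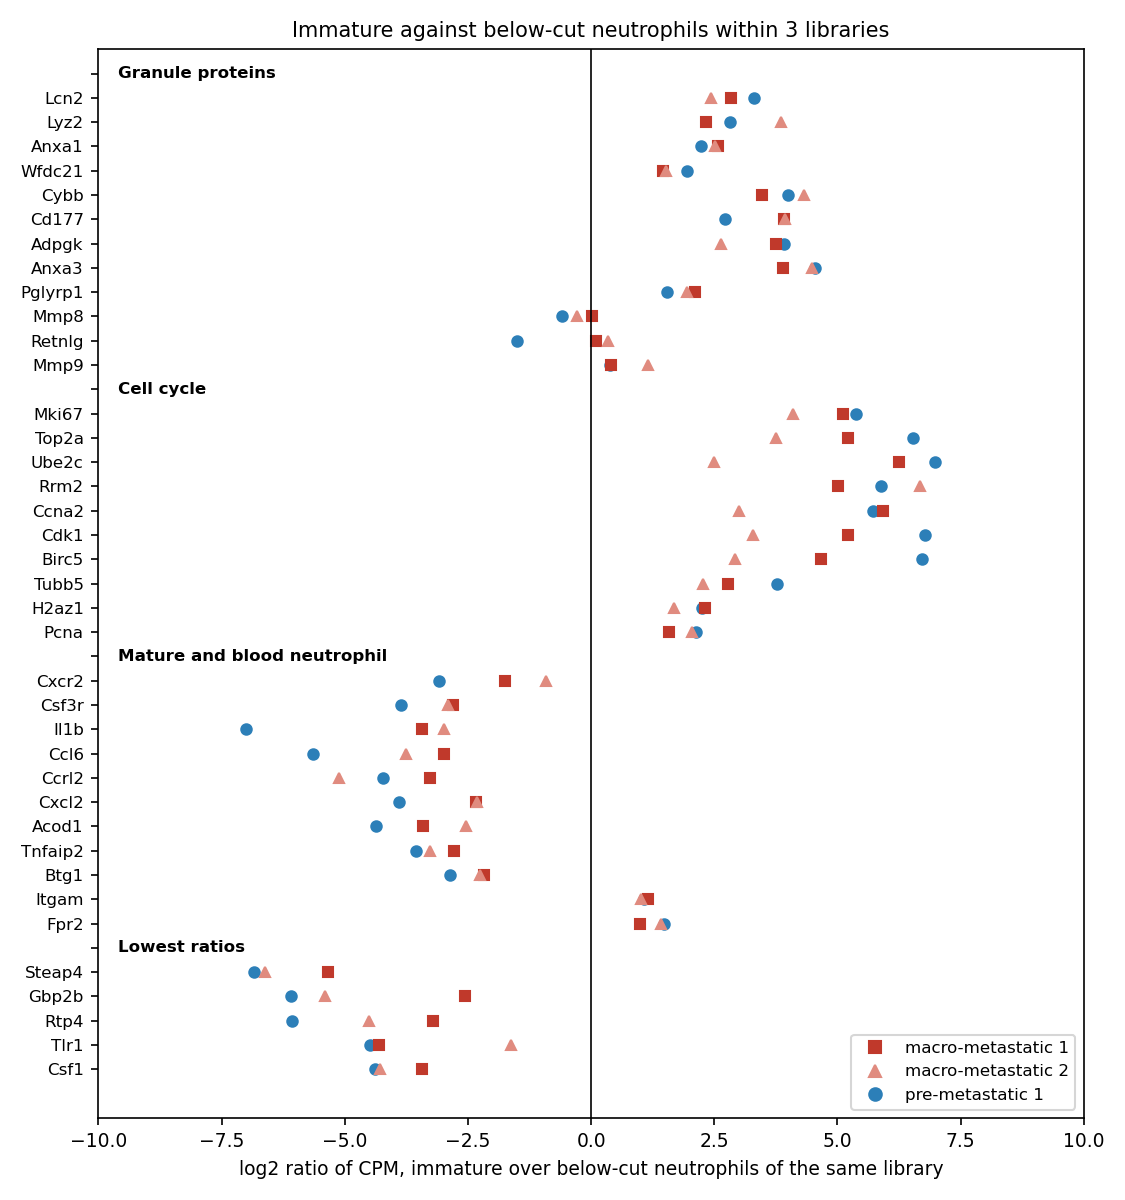
Log2 ratio of CPM, members over neutrophils below the cut of the same library, for 38 genes in 4 groups, with 1 symbol for each of 3 libraries and the line at 0 marking equal levels. Granule genes other than Mmp8, Mmp9 and Retnlg and all the cell cycle genes shown lie right of 0, and all the mature neutrophil genes shown other than Itgam and Fpr2 lie left of it.

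The cell cycle signal came from a minority of the members. Each barcode with at least 1000 UMIs was thinned to 1000 UMIs, which left 143 members (42 were shallower) and 5722 barcodes below the cut (652 were shallower), and the cell cycle genes with a UMI were counted. The counts of members fell into a main group at 0 to 4 genes and a second spread from 9 to 16, and a limit of 7 genes was set after seeing this. At or above it were 27 members, or 18.9% (95% Wilson interval 13.3% to 26.1%), against 4 barcodes, or 0.0699% (0.0272% to 0.180%), below the cut. These intervals pool the libraries and cover counting error only, not the spread between libraries, and 19 of the 27 were from macro-metastatic 1. Only 5 members lay at 6 or 7 genes. Without thinning, 32.4% of all members and 0.518% of all barcodes below the cut had 7 or more. By library, these were 1 of the 3 control members, 5 of 30 and 0 of 7 thinned members in pre-metastatic livers, where 0 of 7 leaves room for up to 35.4% by the Wilson interval, and 19 of 75 and 2 of 28 in macro-metastatic livers. The macro-metastatic libraries, at 25.3% and 7.14%, overlapped the pre-metastatic ones.

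Members with 7 or more cell cycle genes, called cycle-high here, had low levels of the late genes, which the split did not use. In pre-metastatic 1, macro-metastatic 1 and macro-metastatic 2, Mmp8 was at 291, 0 and 0 CPM in the cycle-high members, against 1892, 2538 and 4318 CPM in the others. Retnlg was at 226, 380 and 128 CPM, against 2869, 12875 and 16882 CPM. Cxcr2 was at 32.3, 170 and 0 CPM, against 473, 571 and 1220 CPM. Camp ran the other way, at 8720, 16509 and 21685 CPM, against 6088, 10340 and 10253 CPM, and so did Chil3, at 4683, 2167 and 4798 CPM, against 2694, 1132 and 2058 CPM. Fcnb was higher in the cycle-high members of both macro-metastatic libraries, at 584 and 2495 CPM against 183 and 137 CPM, and lower in pre-metastatic 1, at 194 CPM against 339 CPM. Ltf, Lcn2 and Cybb differed by less than 1.5-fold in each library. The split rests on 5, 19 and 2 cycle-high members, and is a description with no test.

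**Figure D4:**
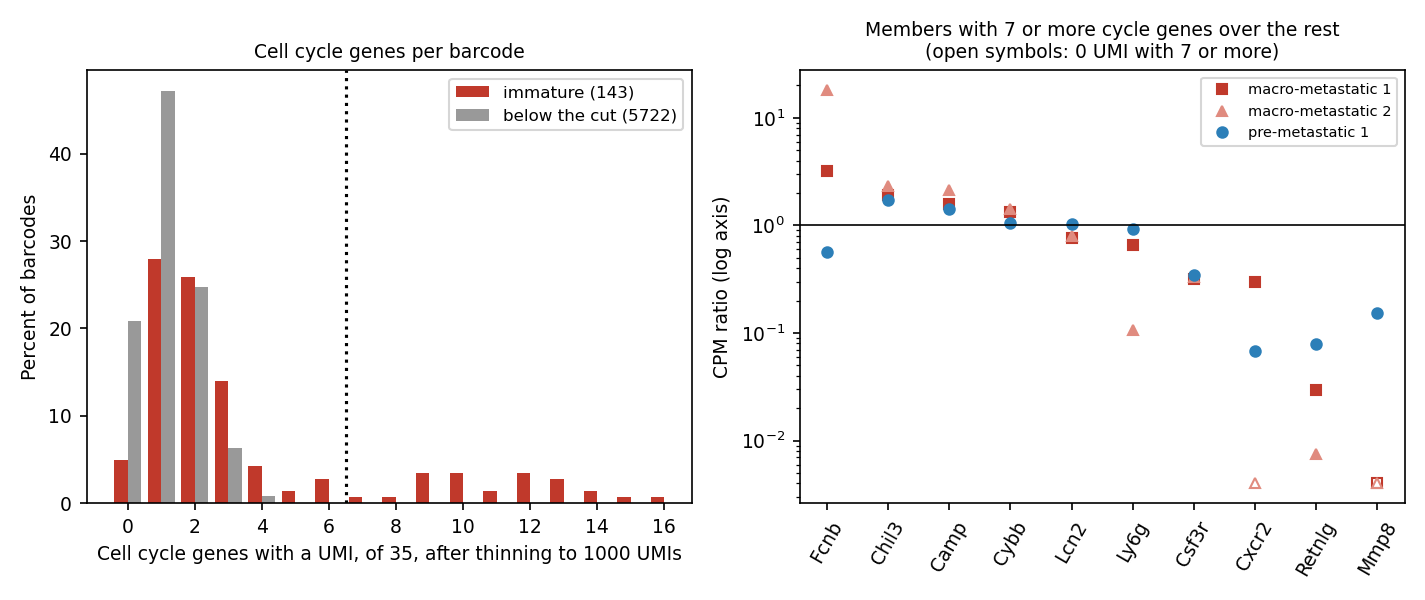
Left, percentage of barcodes by the number of 35 cell cycle genes with a UMI after thinning to 1000 UMIs, for 143 members and 5722 neutrophils below the cut, with the dotted line at the limit of 7 genes. Right, CPM in members with 7 or more cell cycle genes over the other members of the same library (log axis, open symbols at the foot for 0 UMI), where Mmp8, Retnlg and Cxcr2 lie below 1 and Camp and Chil3 above it in all 3 libraries.

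Macro-metastatic members were then compared with pre-metastatic members over summed UMIs per library. Too few members were in the control libraries for any gene comparison with control, and pre-metastatic 2 held only 7, fewer than the 10 at first required, so that the comparison was run on the 4 libraries with at least 5 members. Summed UMIs were 456592 and 161651 in macro-metastatic and 133990 and 19091 in pre-metastatic members. Of 2279 genes tested by edgeR's quasi-likelihood test, 106 (4.65%) were higher and 25 (1.1%) lower at an adjusted p under 0.05. The median log2 fold change over all of them was 0.02. Several of the genes also moved in other cells of these libraries, so changes below the cut, in barcodes with B cell markers (B barcodes) or in both are given beside many of the main ones. Cd177 was not tested in B barcodes. The count of calls depended on the libraries, with 82 without macro-metastatic replicate 1, 96 without macro-metastatic replicate 2, 105 without pre-metastatic replicate 1 and 225 without pre-metastatic replicate 2.

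Among the genes listed for specific and gelatinase granules, not all of which encode granule proteins, 4 of 26 tested rose (Hp, Cd177, Slpi and Pglyrp1). From the same list 2 fell (Lyz2 and Adpgk), and the median log2 fold change was 0.19. Hp, the gene of the haemoglobin-binding protein haptoglobin, was at 1822 and 2011 CPM in macro-metastatic members, against 112 and 105 CPM in pre-metastatic members. Its log2 fold change was 4.24 (SE 0.311) with an adjusted p of 3.47e-05, beside 3.10 in neutrophils below the cut and 1.48 in B barcodes. Cd177 was at 2446 and 1942 CPM, against 112 and 157 CPM, with a log2 fold change of 4.33 (SE 0.328), an adjusted p of 3.47e-05, and a change of 3.27 below the cut. The groups did not overlap for either gene, and both calls held in every alternative that tested them. Pglyrp1, a peptidoglycan recognition protein of granules, had a log2 fold change of 1.30 (SE 0.224, adjusted p = 0.00638), beside 0.70 below the cut and 1.19 in B barcodes. Slpi, a leukocyte protease inhibitor, rose by 3.14 (SE 0.400, adjusted p = 0.00114), beside 3.74 in B barcodes, where it was not called (adjusted p = 0.498). Lyz2 (lysozyme) was at 13012 and 12279 CPM in macro-metastatic members, against 21360 and 21843 CPM in pre-metastatic members, a log2 fold change of -0.59 (SE 0.132, adjusted p = 0.0236). It was -0.27 below the cut and 1.85 in B barcodes, neither of them called (adjusted p = 0.822 and 0.310). With members at 4% or over, Lyz2 and Adpgk, a glucokinase that uses ADP, no longer passed, at adjusted p-values of 0.0652 and 0.0622, while Lcn2 did, at 0.63 (adjusted p = 0.00331) against 0.54 (adjusted p = 0.0517) with all members.

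Of the rule's own markers Camp was called, with a log2 fold change of 1.14 (SE 0.173, adjusted p = 0.00252), and since the rule used these 5 genes that value is a description. Of 21 cell cycle genes, 0 were called by edgeR or DESeq2, and 1, the tubulin gene Tuba1b, had an unadjusted p under 0.05. It just missed the threshold, with a log2 fold change of 2.04 (SE 0.551, adjusted p = 0.0529), and was called in 13 of 16 alternatives, members at 4% or over among them (2.40, adjusted p = 0.00358), over which its adjusted p ranged from 0.000853 to 0.230. Below the cut and in B barcodes it changed by 2.28 and 1.20. Likewise 0 were called of 8 NADPH oxidase genes, with 2 at an unadjusted p under 0.05, of 6 genes of bone marrow retention and release, with 3, and of 2 of ribosome biogenesis, with 0. Of these, Ncf4 and Cxcr2 were called in 3 alternatives each, Cyba in 2 and Selplg in 1. Over all 2279 genes tested, 4.65% were called higher and 1.1% lower. Having 0 calls in lists this short, that of the cell cycle included, therefore does not show that these genes were unchanged.

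Of the NF-kB and inflammatory cytokine genes, 9 of 16 tested rose and 1, Osm, fell, with a median log2 fold change of 2.00. Il1b, the gene of interleukin-1 beta, was at 1003 and 823 CPM in macro-metastatic members, against 104 and 210 CPM in pre-metastatic members. Its log2 fold change was 3.04 (SE 0.352, adjusted p = 0.000715). Below the cut it was -0.72 and not called (adjusted p = 0.135), at 10868 and 6520 CPM in macro-metastatic against 13912 and 14904 CPM in pre-metastatic libraries. B barcodes, which should lack Il1b, held 492 and 301 CPM in macro-metastatic and 304 and 106 CPM in pre-metastatic libraries, so the level in pre-metastatic members was no higher than this background in 1 of 2 libraries. With members at 4% or over, Il1b was at 399 and 273 CPM in macro-metastatic members, close to the B barcodes, and the log2 fold change was 2.56 (adjusted p = 0.0026). The log2 fold change was 3.30 without the members that had a UMI of Csf1r or Fn1, genes of monocytes and macrophages, and the adjusted p was then 0.321. Neutrophils below the cut held Csf1r as well, at a pooled 282 CPM without a marker UMI, against 71.0 CPM in members at 4% or over. The source of the Csf1r UMIs was not tested.

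Of the same list Cxcl2, which draws neutrophils through CXCR2, was at 4236 and 2685 CPM in macro-metastatic members, against 448 and 105 CPM in pre-metastatic members, with a log2 fold change of 3.39 (SE 0.397, adjusted p = 0.000715). It also rose below the cut, by 1.35. In B barcodes the log2 fold change was 3.87 and not called (adjusted p = 0.243), at 1598 and 507 CPM in macro-metastatic libraries, and without members with Csf1r or Fn1 its adjusted p was 0.205. Ccl3, a chemokine for monocytes and neutrophils, had 416 UMIs in macro-metastatic and 3 in pre-metastatic members, a 34.3-fold ratio of pooled CPM (95% exact counting interval 11.7 to 167), with an adjusted p of 0.000287. In CPM this was 714 and 557 in macro-metastatic, against 22.4 and 0 in pre-metastatic members, while B barcodes had 266 and 90.5 in macro-metastatic against 89.3 and 55.8 in pre-metastatic libraries. Ccl4, Il1a, Nlrp3, Cd14, Nfkbia and Cxcl3 were the others of the list that rose. With members at 4% or over Nlrp3 did not pass (2.67, adjusted p = 0.155) and Cxcl3 was not tested. No pre-metastatic member had a UMI of Cxcl3, which passed the filter on low counts only through the macro-metastatic libraries. Ccl3, Ccl4, Il1a and Nlrp3 also passed it only through those libraries, where they are high. The calls and values of these genes are therefore a description. Nfkbia, the NF-kB inhibitor that NF-kB itself induces, had a log2 fold change of 2.28 (SE 0.328, adjusted p = 0.00192), beside 1.01 below the cut and 1.33 in B barcodes.

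Of the genes listed for myeloid suppressor cells, 5 of 14 rose and 1, Osm, fell. Clec4d, a C-type lectin receptor for fungal and mycobacterial glycolipids, was at 445 and 470 CPM in macro-metastatic members, against 22.4 and 0 CPM in pre-metastatic members, which is 279 UMIs against 3 (ratio 23.0, 95% exact counting interval 7.80 to 112, adjusted p = 0.000715). Below the cut its log2 change was -0.05 and in B barcodes 1.97. Clec4d too passed the filter on low counts only through the macro-metastatic libraries, so its call and ratio are a description. Clec4e (Mincle) and Wfdc17 rose by 2.07 and 3.28 on the log2 scale, with adjusted p-values of 0.00242 for each, and without pre-metastatic replicate 1 that of Wfdc17 was 0.0584. In B barcodes the changes were 2.99 for Clec4e and 2.13 for Wfdc17. The other 2 were Cd14 and Il1b. The mature neutrophil list overlaps with these, and 6 of its 22 tested genes rose, among them Acod1, which makes itaconate, by 2.74 (SE 0.358, adjusted p = 0.00124), beside 0.97 below the cut and 3.10 in B barcodes. Cxcr2 was not called (log2 fold change 1.07, SE 0.427, adjusted p = 0.165).

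Glycolysis and hypoxia genes gave 5 calls among 11 tested, all upward (Gapdh, Pkm, Gpi1, Hilpda and Eno1). Gapdh was at 1818 and 2072 CPM in macro-metastatic members, against 172 and 419 CPM in pre-metastatic members (log2 fold change 3.28, SE 0.337, adjusted p = 0.000287). The change was 3.57 below the cut and 3.14 in B barcodes, so it was as large in an unrelated cell class of the same libraries. Pkm and Gpi1 rose by 2.31 and 2.48 in members, beside 1.80 and 2.49 in B barcodes. Eno1 passed the filter on low counts only through the macro-metastatic libraries, and its call is a description. Of transcription factors and regulators, Pim1, a kinase induced by cytokines through STAT signalling, rose by 3.45 (SE 0.409, adjusted p = 0.000715), beside 1.27 below the cut and 1.35 in B barcodes. Pim1 was also among the genes that did not pass without members with Csf1r or Fn1 (adjusted p = 0.207). Cebpd fell by 1.69 (SE 0.366, adjusted p = 0.0204), and lost the call when any of 3 libraries (pre-metastatic 1 or either macro-metastatic one) was left out, at adjusted p-values of 0.367, 0.192 and 0.219. It was -1.40 below the cut, and 1.31 in B barcodes, where it was not called (adjusted p = 0.0906). The interferon-stimulated list gave 2 rises of 7, Ifitm1 and Ifitm2, and the immediate-early and heat-shock list 2 rises (Hspa8 and Jun) and 1 fall (Fos) of 15. Ifitm1, Hspa8 and Jun passed the filter on low counts only through the macro-metastatic libraries, so their calls are a description. Srgn rose among 3 genes listed for primary granules. With members at 4% or over Jun did not pass (1.99, adjusted p = 0.0530), and Ifitm1 was not tested.

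Among called genes whose groups did not overlap and whose average log2 CPM reached 5, the 6 rises with the highest fitted values were of genes with no UMI in any pre-metastatic member, for which a fitted value is no bound. These 6 genes passed the filter on low counts only through the macro-metastatic libraries, where they are high. Their calls and folds are therefore a description. Against a floor of 3 counts over both pre-metastatic libraries, Tgif1, a repressor of TGF-beta signalling, and Elob, the elongin B subunit of ubiquitin ligases, were at least 6.60-fold higher in macro-metastatic members, with 80 UMIs each. On the same floor Slc15a3, a lysosomal peptide transporter, was at least 5.12-fold, Fosl1, an AP-1 factor, at least 4.87-fold, Lfng, a Notch glycosyltransferase, at least 4.70-fold and the chemokine Cxcl3 at least 3.88-fold higher. Each of these 6 calls was lost without pre-metastatic replicate 1 and without 1 of the macro-metastatic replicates, with adjusted p-values between 0.0516 and 0.325. The falls taken by the same rule were of Kif21b, Hivep1, Txnip, Fos, Crlf3 and Nhsl2. Fos, an immediate-early gene, was at 158 and 179 CPM in macro-metastatic members, against 761 and 1205 CPM in pre-metastatic members, a log2 fold change of -2.27 (SE 0.301, adjusted p = 0.00124), beside -2.31 below the cut and -1.35 in B barcodes. Txnip, which restrains glucose uptake, was at 92.0 and 99.0 CPM, against 455 and 681 CPM (-2.29, SE 0.354, adjusted p = 0.00295), beside -1.79 in B barcodes. Kif21b, Hivep1, Crlf3 and Nhsl2 lost the call without pre-metastatic replicate 1 and without 1 or both of the macro-metastatic replicates, with adjusted p-values between 0.0519 and 0.586. With members at 4% or over Hivep1 did not pass (-2.41, adjusted p = 0.0546), and Slc15a3 and Lfng were not tested.

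Transcripts of other cell types differed between the groups as well. The 8 Kupffer cell markers summed to 403 and 346 CPM in macro-metastatic members, against 59.7 and 105 CPM in pre-metastatic members, and to 540 and 477 CPM against 169 and 205 CPM below the cut. Of these, 2 of 2 tested were called higher in members, C1qb and C1qc, and Clec4f was at 0 by the rule. C1qb and C1qc passed the filter on low counts only through the macro-metastatic libraries, so these calls are a description. The 10 monocyte and macrophage markers summed to 1413 and 1311 CPM in macro-metastatic, against 1746 and 2410 CPM in pre-metastatic members, and Cd74 was the 1 of 3 tested that was called, upward. Cd74 also passed the filter on low counts only through the macro-metastatic libraries. A UMI of Csf1r or Fn1 was present in 43 of 96 and 11 of 39 macro-metastatic members, against 4 of 40 and 0 of 7 pre-metastatic members. Hepatocyte markers summed to 192 to 402 CPM in members over all 6 libraries, and T cell, B cell, endothelial, erythroid, dendritic, basophil and colon carcinoma markers to at most 210 CPM each. The part of these transcripts in the changes above was not tested beyond the alternatives given.

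**Figure D5:**
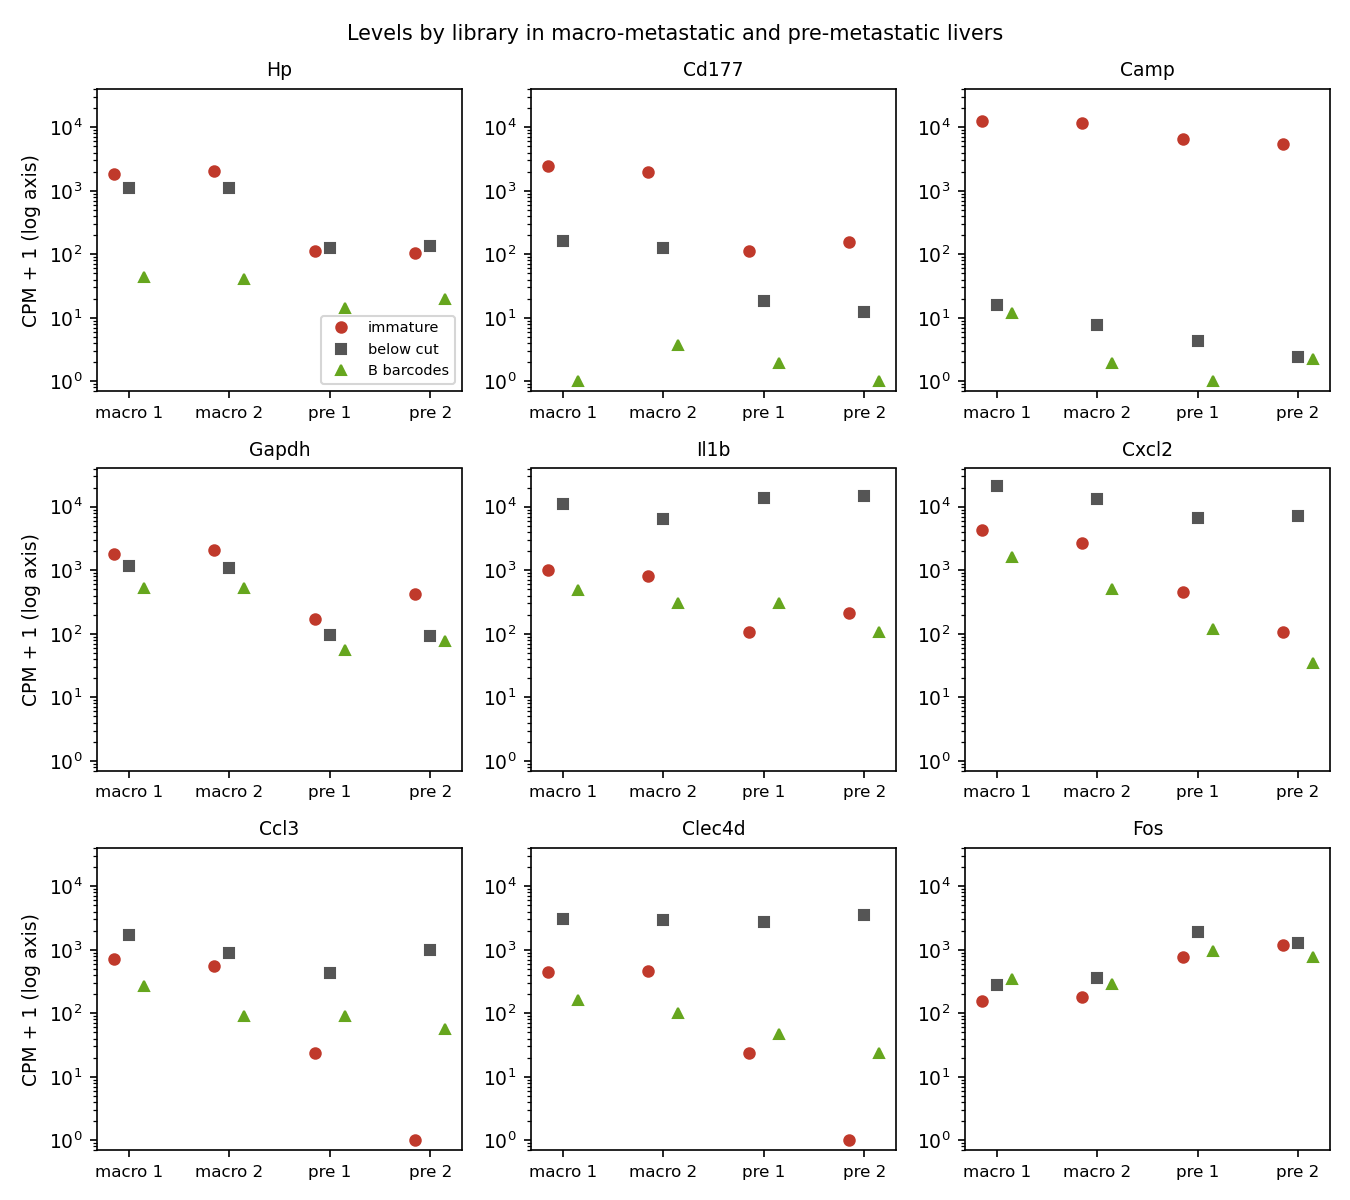
CPM plus 1 (log axis) of 9 genes in members, neutrophils below the cut and B barcodes of each macro-metastatic (left) and pre-metastatic (right) library. Hp, Cd177 and Gapdh are higher in macro-metastatic libraries in both kinds of neutrophil, Il1b and Clec4d are higher in macro-metastatic members, while below the cut the groups overlap or run the other way, and Fos is lower in all 3 classes.

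Whether the change between stages differed between members and neutrophils below the cut was tested as an interaction, with both classes of each library in 1 edgeR quasi-likelihood fit and the library as a term. Of 6046 genes, 59 (0.976%) passed at an adjusted p under 0.05, 53 of them with the more positive change in members. This split depended on the scaling factor, and without one 39 passed, 23 up and 16 down in members relative to below the cut. In the main fit Il1b had the smallest p, with a difference of 3.96 (SE 0.408, adjusted p = 1.82e-18). Clec4d differed by 4.80 (SE 0.612, adjusted p = 1.47e-11), Ccl3 by 4.06 (SE 0.643, adjusted p = 2.82e-07) and Cxcl2 by 2.34 (SE 0.355, adjusted p = 6.87e-08). These 4 genes passed without any 1 of the 4 libraries. Cxcr2 differed by 1.95 (SE 0.380, adjusted p = 0.000112), at 431 and 1058 CPM in macro-metastatic against 351 and 471 CPM in pre-metastatic members, and at 1445 and 1993 CPM against 2997 and 2561 CPM below the cut. Its adjusted p was 0.0594 without macro-metastatic replicate 1 and 0.978 without macro-metastatic replicate 2. Hp and Cd177 did not pass (differences of 1.33 and 1.36, adjusted p = 0.195 and 0.302), nor did Gapdh (-0.08, adjusted p = 0.994) and Fos (0.36, adjusted p = 0.863). Without macro-metastatic replicate 1 the number of genes called was 6, and without macro-metastatic replicate 2 it was 13.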

How the data were processed

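The authors deposited raw UMI counts per gene and cell barcode for 6 libraries, with 31253 features each. The submitters' processing notes name CASAVA 1.8, UMI-tools and build mm10, with aligner, annotation and strand use not given in the sources used here. Members, neutrophils below the cut and B barcodes (2 or more B cell marker genes detected, and no UMI of Cd3e, Clec4f or Stab2) were grouped by the labels, counted, and their UMIs summed per library, since cells are not replicates. Both the members and the gene lists were chosen with earlier results of these data known.

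Class counts and summed UMI counts were tested with edgeR 4.0.16 in R 4.3.3 (quasi-likelihood test, filterByExpr and TMM for genes, Benjamini-Hochberg adjustment over all classes or genes tested, calls at an adjusted p under 0.05), with DESeq2 1.42.0 as an alternative. The gene fit was also run on simulated counts with the same spread for all genes. That run cannot show how the fit does with the real spread or on genes with few UMIs. A planned gene comparison needed at least 10 members in both libraries of each group, which no comparison had, so libraries with at least 5 members were used. Log2 ratios of members to neutrophils below the cut had 0.5 UMI added to each sum. Named genes were up to 4 of each list by smallest p, the 6 called rises and 6 called falls with the largest fold change among genes whose groups did not overlap and whose mean log2 CPM was at least 5, and the 12 highest and 12 lowest within-library ratios. Other list members, such as Lcn2, Mmp8, Retnlg, Csf3r and Lyz2, were chosen after their values were seen, and 1 list member is not reported here.

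Doublets were not removed, and leaving out the top 6% of doublet scores (scanpy 1.11.5, Python 3.11.15), which held 16 of the 185 members, was an alternative. Library pairs shared between 94 and 201 kept barcodes, of which 0 to 4 were a member in one of them and 0 in both. Members summed to 19091 UMIs in the shallowest of the 4 libraries compared and to 456592 in the deepest, which limits the precision of low genes.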

Additional observations from a re-analysis of the deposited data

Results flagged for a closer look

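The change between macro-metastatic and pre-metastatic livers differed between members and neutrophils below the cut in 59 genes by edgeR's interaction test, and 13 of these are among the named genes. Of these Ngp had the more negative change in members (-1.63, adjusted p = 5.96e-05), which is a description since the rule used this gene. The other 12 had the more positive log2 change in members. The difference (change in members minus change below the cut) was 4.80 for Clec4d, 4.06 for Ccl3, 3.96 for Il1b and 2.34 for Cxcl2, and these 4 passed whichever library was left out. It was 2.65 for Wfdc17, 2.26 for the kinase Pim1, 1.98 for Acod1, 1.95 for Cxcr2, 1.89 for Slpi, 1.75 for Clec4e, 1.43 for Nfkbia and 1.23 for Srgn. None of these other 8 passed without macro-metastatic replicate 1 or without macro-metastatic replicate 2, where their adjusted p-values were between 0.0594 and 1.00.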

How the results depend on the processing

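The rise of members among kept barcodes in macro-metastatic against control livers (log2 5.04) kept its direction and its call under each alternative other than leaving out a library. The counts themselves depended on depth. With each barcode thinned to 500 UMIs before the rule, macro-metastatic libraries held 188 and 45 members, against 96 and 39 unthinned. Pre-metastatic libraries then held 47 and 7, and control libraries 2 and 2. Over the libraries left out the rise ranged from 4.09 to 5.65. The pre-metastatic against control value ranged from 2.04 to 4.58 and the macro-metastatic against pre-metastatic value from 0.293 to 3.01. With a replicate block, pre-metastatic against control became 3.69 (adjusted p = 3.06e-05) and macro-metastatic against pre-metastatic 1.38 (adjusted p = 0.00269), both calls. The numbers were not shown to pair the libraries, since deviations of replicate 1 over whole libraries correlated between groups at 0.300, -0.191 and 0.149 over 8652 genes. DESeq2 called pre-metastatic against control (3.90, adjusted p = 0.00625). The difference in the share of neutrophils ranged from 0.0368 to 3.03 percentage points for macro-metastatic against control, from -0.447 (without pre-metastatic replicate 1) to 2.23 for pre-metastatic against control, and from -0.854 (without macro-metastatic replicate 1) to 2.14 for macro-metastatic against pre-metastatic. The last was -0.697 without pre-metastatic replicate 2 and -0.411 without members with Csf1r or Fn1.

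Against 131 genes called between macro-metastatic and pre-metastatic members, there were 47 with DESeq2 and 82 to 225 over the libraries left out. Without a scaling factor 149 were called, with 99 up and 50 down, against 106 up and 25 down, and the median of all genes moved to -0.14. With no filter on low counts it was 163 of 11330, 152 up and 11 down, with a median of 0.55. The other settings, a replicate block among them, gave 130 to 188. Of 36 named called genes, DESeq2 called 22, did not call 4 and gave the rest no adjusted p. Calls of named genes were also lost without pre-metastatic replicate 1, where the losses were most, and without either macro-metastatic replicate. None was lost without pre-metastatic replicate 2. The 59 interaction calls were 39 without a scaling factor and 6 to 91 over the libraries left out. The 4% cut and the fits with at least 5 members were chosen after seeing the data. A library left alone in its group is assumed to vary like the others. The few members of the controls and of pre-metastatic 2 limit every comparison, and the cause of these changes was not tested.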
